A study of Mus musculus with 6 samples.

Results

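The 38 genes described here are the transporters, enzymes and regulators of glycolysis together with a set of genes of the cellular response to low oxygen. They were chosen by name, as all probe sets whose platform gene symbol was 1 of the 38. By that rule 79 of the 45101 probe sets on the array belonged to 35 of the genes. The other 3, Eno1, Gpi1 and Bnip3l, had no probe set of their own symbol and were not analysed here. Gapdh was present on 3 control probe sets, which entered no test, and Slc2a3, Aldoc, Egln3 and Ankrd37 had probe sets too dim to be tested. That left 62 probe sets of 30 genes in a fit over 27022 probe sets of 12966 named genes.

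The series set cells given the secreted ligand BMP4 against cells given none, to find BMP4-regulated genes that accompany the commitment of C3H10T1/2 cells to become adipocytes. These are an established line of mouse mesenchymal stem-like cells, which can be turned in culture toward fat, cartilage, bone or muscle. The treated group received 50 ng/ml BMP4 during proliferation and was grown past confluence, and the control group was handled alike without BMP4. Total RNA of 3 samples per group was taken after confluence and each was hybridised to 1 single-colour array. Both groups are the same line without a genetic change, and it is not stated whether the 3 samples of a group were separate cultures, so the p-values measure the spread between these samples only.

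The 9 mesenchymal fibroblast markers examined were above background on all arrays. Background was the highest signal, 29.1, among 27 control probe sets of the bacterial genes dap, lys, phe, thr and trpn. Of the markers of other cell types, 4 of 6 blood, 2 of 6 epithelial and 1 of 5 endothelial genes were above background on all arrays. The defining genes Ptprc (blood, at most 6.6), Pecam1 (endothelium, at most 4.7) and Cdh1 (epithelium, at most 28.5) were not above it on any. Others were, among them Epcam (197.2 to 428.3), Cd14 (180.9 to 212), Csf1r (112.4 to 169.7) and the endothelial Tek (52.3 to 128.9) on all 6 arrays. The Epcam probe set has the suffix x_at, which marks probes that can also bind other transcripts. The part of blood, epithelial or endothelial cells in the results was not tested. The 2% trimmed mean signal was 150 on every array. The median signal was higher on all BMP4 arrays, at 42.6, 38.9 and 37.6, against 37.3, 35.2 and 35.9 on the control arrays. Signals of the brightest probe sets were not even either. The spiked-in cre transcript read 8949.9, 10048.7 and 8168.9 with BMP4 and 7046, 8649.3 and 8905.2 without, lowest on control array 1. Its part in the results was not tested.

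Glycolysis turns glucose into pyruvate, which is either reduced to lactate and exported or passed into mitochondria through pyruvate dehydrogenase. The hypoxia-inducible factors HIF-1 and HIF-2 are dimers whose oxygen-regulated subunits, encoded by Hif1a and Epas1, are hydroxylated when oxygen is present, bound by the VHL protein and degraded. When its subunit persists HIF-1 raises many glycolytic genes, while HIF-2 is known in particular from endothelium, kidney and fat. Their control lies largely at the level of the protein, which arrays do not measure.

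BMP4-treated cells had less mRNA of the HIF-2 subunit gene Epas1, of the lactate and pyruvate transporter gene Slc16a1 and of the pyruvate dehydrogenase kinase gene Pdk4, and modestly more of 5 enzyme genes of glycolysis and lactate formation. Among the 30 genes tested, 5 rose (Ldha, Ldhb, Pgk1, Pfkl and Pgam1) and 3 fell at an adjusted p under 0.05 (limma, adjusted over all probe sets), so 8 genes or 26.7% passed, against 10.7% of all genes tested. By direction the background was 5.03% of genes higher and 5.66% lower. The falls were 3.10-fold for Epas1, 1.79-fold for Slc16a1 and 1.65-fold for Pdk4, whereas the 5 rises lay between 1.24-fold and 1.35-fold. Counted by probe set, 9 of 62 were higher, against a background of 4.2%, and 4 were lower, against 4.91%. Together these were 21% of the member probe sets and 9.12% of all probe sets. The 3 BMP4 arrays lay wholly above the control arrays for 12 of the 30 genes, against 16.3% of all genes, and wholly below for 6, against 14.5%. Both directions made up 60% of the members and 30.7% of all genes. By probe set, 22 of 62 lay wholly above (15.0% of all) and 10 wholly below (13.2% of all), or 51.6% against 28.2%. The median log2 change was 0.11 over the 30 genes and 0.03 over all genes tested. In RNA from whole cultures, fewer cells that express a gene and less RNA per cell cannot be told apart.

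**Figure D1:**
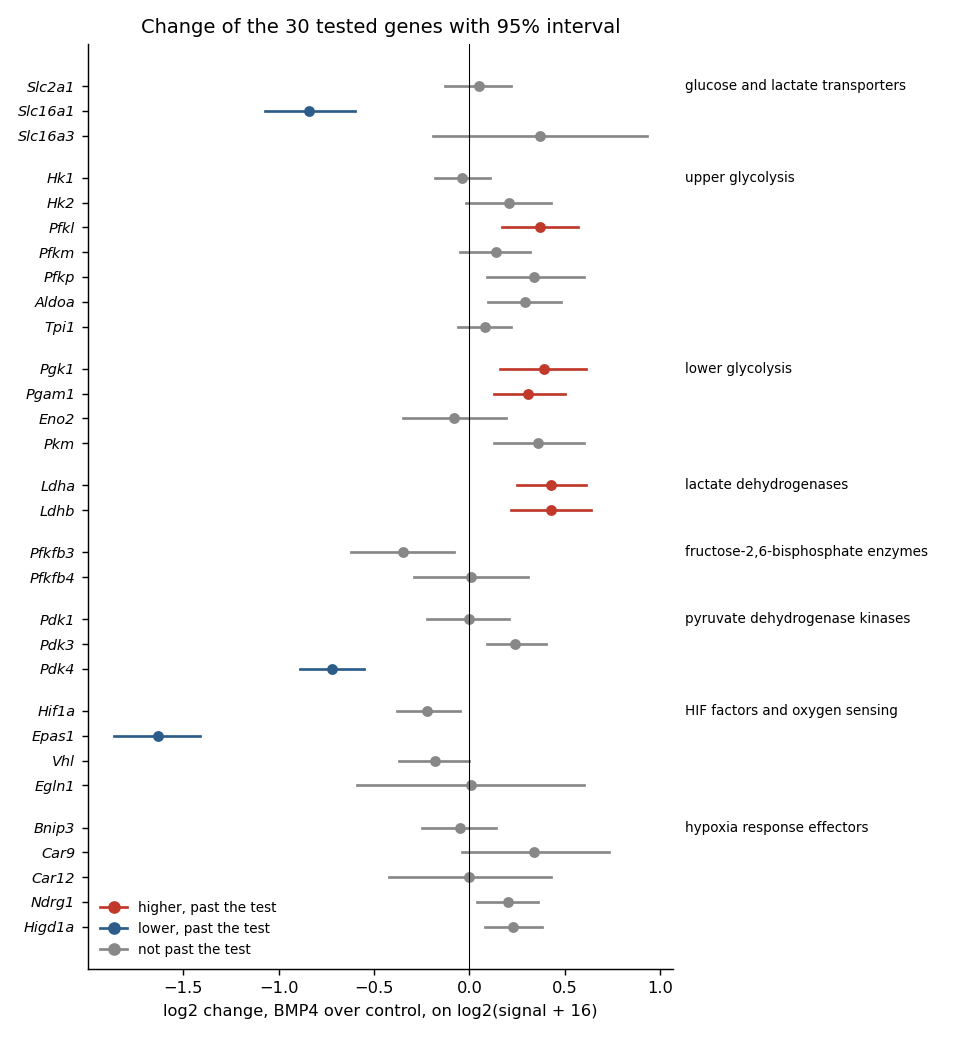
Log2 change of each of the 30 tested genes, BMP4 over control, on the log2(signal + 16) scale (horizontal axis), with bars for the 95% interval from limma (n = 3 arrays per group) and genes grouped by role. Epas1, Slc16a1 and Pdk4 stand apart on the lower side at -1.63, -0.84 and -0.72, while the 5 genes past the test on the higher side lie between 0.31 and 0.43.

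The falls held more firmly than the rises. Epas1, Slc16a1 and Pdk4 passed the test under each of the 14 other settings tried, with highest adjusted p-values of 0.00145, 0.0119 and 0.00866 (limma). The number of higher genes ranged from 0 to 9 over the same settings, while 2.62% to 7.48% of all genes were higher. It was 1 (Ldhb) when each array was centred on its median signal, or 3.33% of members against 2.78% of all genes. With centring 3 of 30 members were still lower, where 8.08% of all genes were. The number of higher genes was 0 in limma without the intensity trend of the variance model, against 2.86% of all genes. There 3 members were lower, against 3.12% of all genes. In these 2 settings the share of members called higher was near or below that of all genes. At an unadjusted p under 0.05, 5 members were higher with centring, where 6.63% of all genes were, and 10 without the trend, where 11.6% were. As reported it was 11, with 12.9% of all genes. Centring also changed the share of higher genes among all probe sets called, to 25.1%, against 46.1% as deposited, and moved the median of all genes to -0.07. With 1 array left out, 2 genes were higher without BMP4 replicate 2 (Ldha and Ldhb, 3.79% of all genes) or BMP4 replicate 3 (Ldha and Ldhb, 3.76%). Without control replicate 1 there were 2 (Ldha and Pgk1, 3.64% of all genes), and without control replicate 2 there were 3 (3.54%).

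**Figure D2:**
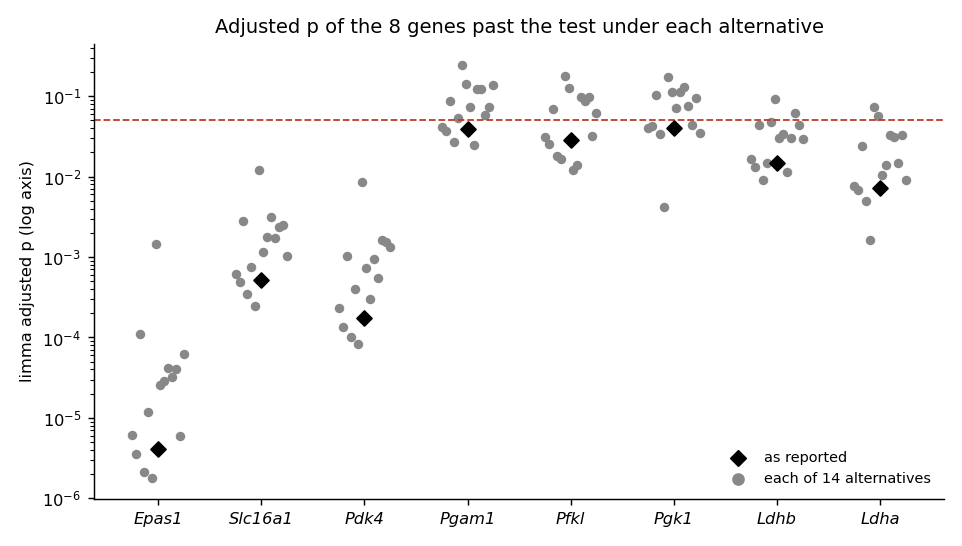
Limma adjusted p (vertical log axis) of the 8 genes past the test, as reported (black diamonds) and under each of 14 alternatives (grey points), with the threshold of 0.05 as a dashed line. All points of Epas1, Slc16a1 and Pdk4 lie below the line, whereas Pgam1, Pfkl, Pgk1, Ldhb and Ldha each have points above it.

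HIF dimers bind a short core in DNA, commonly ACGTG and also its variant GCGTG, and 300-base promoters of genes that moved are shown here for that reason. RefSeq promoter sequence (GRCm38.p6, 250 bases before to 50 after an annotated start, some genes with several starts) was matched by symbol for 34 of the 38 genes, all but Bnip3l, Epas1, Ndrg1 and Slc2a3. The core was present on either strand in at least 1 promoter of 29 of these 34 genes, or 85.3% (95% Wilson interval 69.9 to 93.6), against 65.2% of the genes tested on the arrays. With ACGTG alone the shares were 64.7% and 28.5%. The members were chosen as glycolysis and hypoxia response genes, so a high share may follow from that choice and says nothing about BMP4. The interval treats them as a random sample, which they were not. The median promoter held 20 CG dinucleotides among the members and 19 among the genes tested. The 7 matched genes that passed the test all held a core, the 5 higher as well as Slc16a1 and Pdk4, and so did 17 of the 21 that were tested and did not pass. A match describes the letters only and is not a binding site. The promoters of the 3 risen genes with the most matches, a choice made after the matches were counted, and of the 2 fallen genes that were matched follow, 5′ to 3′ on the strand of the gene, with matches to either form of the core, on either strand, in capitals. A run of 6 capitals reads as a core on both strands and was counted as 2 overlapping matches.
Ldha, chr7:46845554-46845853, plus strand, the first of 2 annotated starts: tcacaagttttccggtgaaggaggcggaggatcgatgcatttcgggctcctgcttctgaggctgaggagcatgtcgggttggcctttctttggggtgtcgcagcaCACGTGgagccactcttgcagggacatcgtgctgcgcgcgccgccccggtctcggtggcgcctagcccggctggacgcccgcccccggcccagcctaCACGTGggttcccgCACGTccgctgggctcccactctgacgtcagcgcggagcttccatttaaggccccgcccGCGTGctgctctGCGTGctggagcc
Pgk1, chrX:106186850-106187149, plus strand: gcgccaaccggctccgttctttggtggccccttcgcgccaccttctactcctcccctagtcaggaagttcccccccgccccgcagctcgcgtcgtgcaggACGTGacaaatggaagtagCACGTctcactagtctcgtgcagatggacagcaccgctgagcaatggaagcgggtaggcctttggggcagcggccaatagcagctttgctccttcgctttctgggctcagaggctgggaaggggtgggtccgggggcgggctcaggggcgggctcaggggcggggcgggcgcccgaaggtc
Pgam1, chr19:41911621-41911920, plus strand: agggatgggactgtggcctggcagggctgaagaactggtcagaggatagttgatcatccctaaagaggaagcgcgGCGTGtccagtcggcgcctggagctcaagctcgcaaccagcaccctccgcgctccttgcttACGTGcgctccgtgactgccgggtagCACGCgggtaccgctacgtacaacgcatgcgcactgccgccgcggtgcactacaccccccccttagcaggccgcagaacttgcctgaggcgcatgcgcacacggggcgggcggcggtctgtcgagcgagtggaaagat
Slc16a1, chr3:104638414-104638713, plus strand: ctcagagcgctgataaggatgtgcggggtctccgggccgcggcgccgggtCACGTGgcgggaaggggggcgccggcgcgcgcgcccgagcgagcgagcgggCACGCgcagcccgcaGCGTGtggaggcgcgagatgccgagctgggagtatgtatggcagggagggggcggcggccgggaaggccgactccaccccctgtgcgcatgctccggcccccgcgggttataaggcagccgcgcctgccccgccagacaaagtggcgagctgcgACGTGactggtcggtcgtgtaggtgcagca
Pdk4, chr6:5496229-5496528, minus strand: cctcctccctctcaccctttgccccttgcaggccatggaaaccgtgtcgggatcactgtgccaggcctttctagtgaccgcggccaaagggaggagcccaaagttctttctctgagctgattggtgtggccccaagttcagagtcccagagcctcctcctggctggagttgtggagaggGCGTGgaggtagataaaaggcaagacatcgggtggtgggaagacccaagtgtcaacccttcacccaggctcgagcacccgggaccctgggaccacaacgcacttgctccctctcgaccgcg

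**Figure D3:**
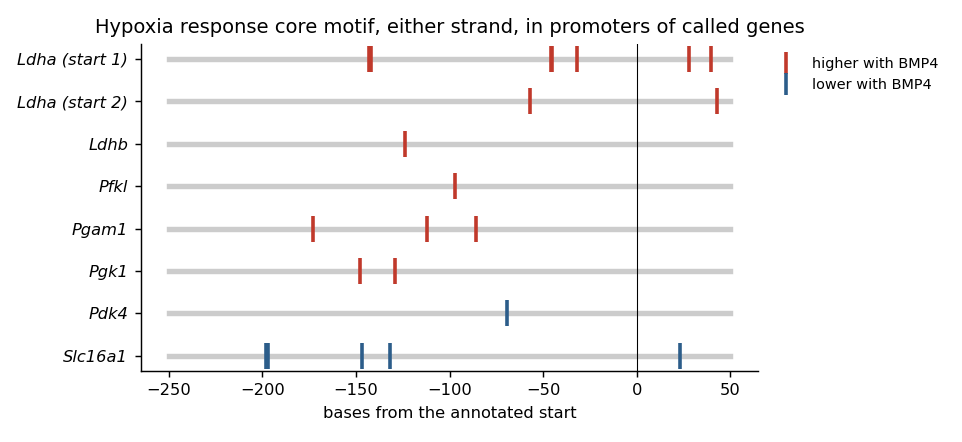
Position of each hypoxia response core match, on either strand, in the promoters of the genes past the test (horizontal axis, bases from the annotated start), red for genes higher with BMP4 and blue for genes lower. Ldha has 7 matches at its first start and Slc16a1 has 5, while Ldhb, Pfkl and Pdk4 have 1 each.

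Among the transporters, Slc16a1 was the gene that changed. It encodes MCT1, a proton-coupled carrier of lactate, pyruvate and ketone bodies. Its signal was 184.6, 170.5 and 191.1 on the BMP4 arrays, against 396.2, 321.7 and 301.4 on the control arrays, and the groups did not overlap. It fell by 0.84 on the log2 scale (SE 0.11, limma adjusted p = 0.000514). The value with control replicate 1, the highest of the controls, left out was -0.73. Slc2a1, which encodes the widespread glucose carrier GLUT1, had 652, 616.4 and 616.8 with BMP4 and 617.8, 662.2 and 550 without, so its groups overlapped. Its log2 difference was 0.05 (95% interval -0.13 to 0.22, limma adjusted p = 0.784), and its 2 further probe sets gave 0.06 and 0.01. Slc16a3, which encodes the lactate exporter MCT4, read 55.3, 28.2 and 19.8 with BMP4 and 22.5, 19.4 and 22.4 without. Slc16a3 was above background only on BMP4 array 1, and its log2 difference of 0.37 had an interval from -0.19 to 0.93. With that array left out it was too dim to be tested. All 4 probe sets of Slc2a3, the glucose carrier GLUT3, stayed below background on every array.

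In upper glycolysis, from glucose to the triose phosphates, 1 of 7 genes tested rose and none passed the test downward, so 14.3% were called, near the 10.7% of all genes. Of the 7 log2 values 6 were above 0, against 55.1% over all genes. Pfkl, the liver-type phosphofructokinase subunit, had signals of 758.6, 889.9 and 887.4 with BMP4 and 581.2, 708.3 and 666.7 without. The lowest treated array exceeded the highest control array, and Pfkl rose by 0.37 (SE 0.09, limma adjusted p = 0.0281). A dimmer Pfkl probe set, at 427 ± 23.5 and 383 ± 15.0 (SD, n = 3 each), gave 0.15 (limma adjusted p = 0.248), and the dimmest gave 0.09, so the size of this rise depends on the probe set. The platelet-type subunit gene Pfkp gave 0.34 (limma adjusted p = 0.103) and the muscle-type gene Pfkm 0.14 (limma adjusted p = 0.374). The BMP4 and control arrays of Pfkp did not overlap, while those of Pfkm did.

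Aldoa, the main aldolase of fibroblasts and muscle, read 2746.1, 3013.5 and 3023.4 with BMP4 and 2149.6, 2529 and 2502.3 without. Its treated arrays were all above its control arrays, at a log2 difference of 0.29 that missed the threshold (limma adjusted p = 0.0573). The other 4 Aldoa probe sets gave 0.12 to 0.24, and none of them passed. Every Aldoa probe set has the suffix x_at, which marks probes that can also bind other transcripts. Aldoa passed under quantile normalization (adjusted p = 0.0185) and where the dimmest 60% of probe sets were left out (0.0422). The hexokinase genes, whose products trap glucose in the cell, had log2 values of -0.04 for Hk1 (95% interval -0.18 to 0.11) and 0.21 for Hk2 (-0.02 to 0.43), and neither passed. Tpi1, the triose phosphate isomerase gene, gave 0.08 (-0.06 to 0.22), with 0.12 and 0.08 on its other probe sets. Aldoc, the brain-type aldolase, averaged 25.3 ± 8.55 with BMP4 and 15.2 ± 1.85 without (SD, n = 3 each) on its brighter probe set, above background on 1 BMP4 array and no control array.

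In lower glycolysis, from glyceraldehyde phosphate to pyruvate, 2 of 4 genes tested rose, against 5.03% of all genes, and none passed the test downward. Pgk1 encodes phosphoglycerate kinase, the enzyme of the first step of the pathway that makes ATP. Its brightest probe set read 6400, 6557.4 and 6114.4 with BMP4 and 4201.1, 5048.7 and 5406.2 without, with no overlap, and the gene rose by 0.39 (SE 0.10, limma adjusted p = 0.04). A dimmer Pgk1 probe set rose by 0.73 (limma adjusted p = 0.0198) and the remaining one gave 0.44 (limma adjusted p = 0.0966). The Pgk1 probe sets that passed have the suffix x_at, which marks probes that can also bind other transcripts. The remaining one, without that suffix, did not pass. Pgam1, the phosphoglycerate mutase gene, read 2136.2, 2408.7 and 2507.7 with BMP4 and 1937.3, 1977 and 1746 without. Those groups did not overlap either, and Pgam1 rose by 0.31 (SE 0.08, limma adjusted p = 0.039), the smallest change of the 8 genes past the test. Pgam1 missed the threshold under 10 of the 14 other settings, with a highest adjusted p of 0.246 (limma).

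Pkm, the pyruvate kinase gene of most tissues outside liver and red cells, read 2313.9, 2259.9 and 2305 with BMP4 and 1467.5, 1869.2 and 2045.1 without. All treated arrays were higher, at 0.36 (limma adjusted p = 0.0597). The array signal does not separate the M1 and M2 forms of Pkm, which differ by 1 exon. Eno2, the neuron-type enolase, had overlapping groups at 102 ± 11.9 with BMP4 and 109 ± 3.55 without (SD, n = 3 each), a log2 difference of -0.08 (95% interval -0.35 to 0.19). Gapdh, glyceraldehyde phosphate dehydrogenase, was seen on its control probe sets, of which the 3′ one read 5147.8, 5308 and 4918.4 with BMP4 and 3452.4, 4750.7 and 4642.7 without. As with the spiked-in cre transcript, the lowest of the 6 Gapdh values was that of control array 1. On their brightest probe sets the same held for Pgk1, Pkm, Ldha, Ldhb, Pfkl, Aldoa, Tpi1, Pfkm and Hk2. It was not so for Pgam1, lowest on control array 3, or for Pfkp, Hk1 and Eno2. Without control array 1 the log2 values were 0.28 for Pgk1 (limma adjusted p = 0.0437), 0.23 for Pkm (0.0852), 0.29 for Pfkl (0.0964), 0.33 for Pgam1 (0.0582) and 0.37 for Ldha (0.0149). The values under quantile normalization, which gives each array the same distribution of signals, were 0.28 for Pgk1 (limma adjusted p = 0.00424), 0.34 for Pkm (0.0402), 0.39 for Pfkl (0.0167), 0.28 for Pgam1 (0.0532) and 0.40 for Ldha (0.00165).

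**Figure D4:**
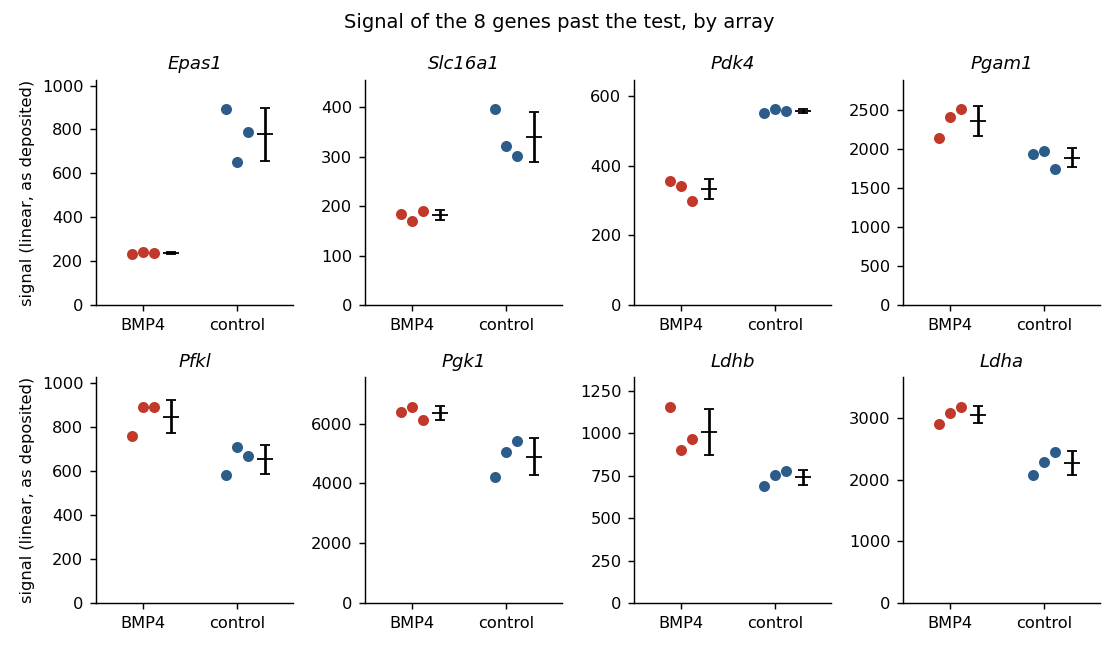
Signal as deposited (vertical axes, linear, from 0) of the 8 genes past the test on each of 3 BMP4 arrays (red) and 3 control arrays (blue), with black marks for the mean and bars for the SD. The groups do not overlap for any of the 8 genes, and the ratio of the group means is furthest from 1 for Epas1, at 238 ± 5.45 with BMP4 and 778 ± 121 without.

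Both lactate dehydrogenase genes rose. Ldha encodes the subunit of muscle-type lactate dehydrogenase and Ldhb that of the heart type, and the enzyme interconverts pyruvate and lactate as a tetramer of either or both. Ldha read 2901.7, 3081.6 and 3180.7 with BMP4, against 2067, 2279.8 and 2454 without, and rose by 0.43 (SE 0.08, limma adjusted p = 0.00715). Ldhb read 1156, 899.5 and 966.5 with BMP4 and 689.9, 754 and 777.2 without, a change of 0.43 (SE 0.09, limma adjusted p = 0.0147). Neither gene had overlapping groups. All 4 Ldhb probe sets passed, with the other 3 at 0.37, 0.43 and 0.45 and adjusted p-values of 0.0095, 0.00128 and 0.0014, while Ldha had 1 probe set. Of those other 3, the ones at 0.43 and 0.45 have the suffix x_at. The brightest Ldhb probe set missed the threshold without control array 1 (0.38, limma adjusted p = 0.0615) and without the intensity trend (0.0929), and Ldha missed it with median centring (0.0725) and without the trend (0.0569). The difference between the 2 log2 changes was 0.00 (the Ldhb minus Ldha values within arrays had an SD of 0.24 with BMP4 and 0.04 without). As described above, the first Ldha promoter held 7 core matches and the Ldhb promoter 1.

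**Figure D5:**
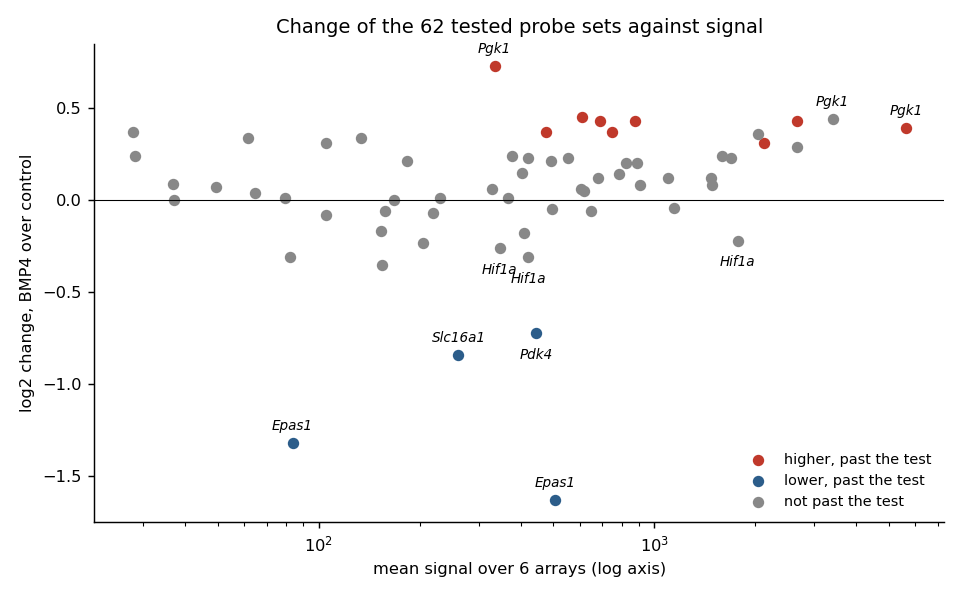
Log2 change, BMP4 over control (vertical axis), of the 62 tested probe sets against mean signal over 6 arrays (horizontal log axis), coloured by whether they passed the test. The 2 Epas1 probe sets lie lowest, at -1.63 and -1.32, and the 3 tested Hif1a probe sets lie between -0.31 and -0.22.

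Of the 3 pyruvate dehydrogenase kinase genes tested, 1 fell (5.66% of all genes) and none passed the test upward. Pdk4, one of the kinases that switch off pyruvate dehydrogenase and a gene known to respond to fasting and fatty acids, read 355.1, 342 and 299.2 with BMP4 and 551.3, 561.6 and 555.7 without. The controls were nearly equal and all well above the treated arrays, and Pdk4 fell by 0.72 (SE 0.08, limma adjusted p = 0.000174). Pdk1, the kinase gene induced by HIF-1, had 168 ± 12 with BMP4 and 168 ± 9.26 without (SD, n = 3 each), a log2 difference of 0.00 (95% interval -0.22 to 0.21), with -0.17 and -0.31 on its other tested probe sets. Pdk3 read 421.2, 401 and 405.2 with BMP4 and 353.1, 344.2 and 331.9 without, at 0.24 just outside the threshold (limma adjusted p = 0.0517). It passed with the dimmest 60% left out (adjusted p = 0.0368) and under quantile normalization (0.0358).

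Pfkfb3 and Pfkfb4 make and break fructose-2,6-bisphosphate, the activator of phosphofructokinase. Pfkfb3 read 115.7, 161.1 and 126.2 with BMP4 and 184.3, 176.9 and 162 without. Its highest treated array lay just under its lowest control array, and the log2 difference of -0.35 did not pass (limma adjusted p = 0.116), except without BMP4 replicate 2 (-0.47, adjusted p = 0.0384). A dimmer Pfkfb3 probe set gave 0.04. Pfkfb4 gave 0.01 (95% interval -0.29 to 0.31).

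Among the HIF factors and oxygen sensors, 1 of 4 genes tested fell (5.66% of all genes) and none passed the test upward. The brighter Epas1 probe set read 233.5, 244.3 and 237.6 with BMP4 and 892.5, 651.5 and 790.7 without. The treated arrays were close to each other and all below every control, and Epas1 fell by 1.63 (SE 0.10, limma adjusted p = 4.1e-06). The dimmer probe set read 33.3, 47.8 and 42.4 with BMP4 and 140.5, 110.9 and 127.5 without, and fell by 1.32 (SE 0.15, limma adjusted p = 0.000297). Hif1a, its relative, read 1555.3, 1768.2 and 1601.9 with BMP4 and 1822.5, 1997.4 and 1907.9 without. Its groups did not overlap on any of 3 tested probe sets, at -0.22, -0.26 and -0.31 with limma adjusted p-values of 0.103, 0.129 and 0.0787, none of which passed. Under quantile normalization the first of these passed (-0.23, adjusted p = 0.0247).

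Vhl, which encodes the recognition subunit of the ubiquitin ligase that marks the hydroxylated factors, had log2 values of -0.18 and -0.23 on its 2 probe sets, and both had lower signals on all BMP4 arrays without passing (limma adjusted p = 0.226 and 0.195). Egln1 encodes PHD2, the main prolyl hydroxylase of oxygen sensing. Its brighter probe set varied widely within groups, at 231 ± 83.9 with BMP4 and 228 ± 79.6 without (SD, n = 3 each), and the steadier one gave -0.07 (95% interval -0.27 to 0.14). Egln3, which encodes PHD3 and is itself a HIF target, stayed below background on all 6 arrays on both probe sets.

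None of the 5 hypoxia response effectors tested passed the test in limma, and 2 of them had an unadjusted p under 0.05, as did 24.9% of all genes. Ndrg1, a stress and differentiation gene induced by low oxygen, read 880.5, 940.1 and 1036 with BMP4 and 791.6, 836.4 and 846.4 without, a log2 difference of 0.20 (limma adjusted p = 0.132), and its other 4 probe sets gave 0.06 to 0.23. Higd1a, a mitochondrial protein gene induced by hypoxia, gave 0.23 with groups that did not overlap (limma adjusted p = 0.069), and -0.06 and 0.07 on dimmer probe sets. It passed where the dimmest 60% of probe sets were left out (adjusted p = 0.0484) and under quantile normalization (0.0469). Car9, which encodes a membrane carbonic anhydrase with little expression outside hypoxic cells, had the largest difference of the group. It read 75.1, 66.7 and 68.9 with BMP4 and 67.1, 38.9 and 52.6 without, at 0.34 with overlapping groups (95% interval -0.04 to 0.73). Bnip3, a mitophagy receptor gene and HIF-1 target, had 488 ± 35.9 with BMP4 and 507 ± 52.7 without (SD, n = 3 each), a difference of -0.05 (95% interval -0.25 to 0.14). Car12, another membrane carbonic anhydrase, gave 0.00 near background (-0.42 to 0.43). Ankrd37, an ankyrin repeat gene and HIF-1 target, read 29.4, 16.1 and 28.4 with BMP4 and 20.3, 13.1 and 18.6 without, above background on 1 BMP4 array and no control array.

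Relatives within families were compared by their log2 difference within each array, with p-values adjusted over 10 pairs. None passed, since 3 against 3 arrays allow no p below 0.1 (two-sided exact permutation test). The smallest p after adjustment was 0.167 in that test. The shift with BMP4 was -1.41 for Epas1 against Hif1a and -0.72 for Pdk4 against Pdk1, pairs that hold a gene already called above and so are no separate result. It was 0.36 for Pfkfb4 against Pfkfb3, 0.25 for Pdk3 against Pdk1 and 0.24 for Hk2 against Hk1, each without overlap between the groups. The groups overlapped at -0.34 for Car12 against Car9, -0.23 for Pfkm against Pfkl, -0.02 for Pfkp against Pfkl and 0.00 for Ldhb against Ldha. The remaining pair, Slc16a3 against Slc16a1, is not read, since Slc16a3 was above background only on BMP4 array 1.

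Further genes of the same pathways, outside the 38, also moved both ways. Of 23 other glycolysis and pyruvate genes tested 1 rose and 1 fell, or 8.70%, near the 10.7% of all genes. Gys1, muscle glycogen synthase, read 116.6, 123.1 and 123.6 with BMP4 and 27.8, 51.1 and 39.6 without, and rose by 1.33 (SE 0.17, limma adjusted p = 0.000572). A dimmer Gys1 probe set gave 0.69 (limma adjusted p = 0.32). Pdp1, the phosphatase that switches pyruvate dehydrogenase back on and so opposes the PDK enzymes, read 631.4, 621.3 and 577 with BMP4 and 926.3, 937.3 and 833.9 without. It fell by 0.55 (SE 0.07, limma adjusted p = 0.000687) and by 0.57 on its other probe set, alongside the fall of Pdk4.

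Of 43 other hypoxia and HIF pathway genes tested 3 rose and 6 fell, with a median log2 change of -0.08. That is 20.9% called, against 10.7% of all genes, of which 5.03% were higher and 5.66% lower. Gys1 is on both further lists and is counted in each. Counted once, 3 of 65 genes of the lists together rose and 7 fell, or 15.4%. Adm, the vasodilator peptide adrenomedullin and a HIF target, had the largest change. It read 267.1, 232.4 and 182.2 with BMP4 and 965.1, 1030.4 and 850.8 without, and fell by 2.00 (SE 0.12, limma adjusted p = 3.43e-06), with -1.88 on another probe set. Selenbp1, a selenium-binding protein gene, fell by 0.88 (limma adjusted p = 0.00233), with -1.49 on another probe set. Arnt2, a partner subunit of the HIF proteins, fell by 0.70 (limma adjusted p = 0.00662), with -0.44 and 0.02 on probe sets near background. The cytokine gene Mif, a HIF-1 target, rose by 0.63 (limma adjusted p = 0.00109), at 3160.2 ± 60.6 with BMP4 and 2051.8 ± 231 without (SD, n = 3 each). Another Mif probe set, near background, gave -0.02. The third gene that rose beside Gys1 and Mif was Tfrc, the transferrin receptor, at 0.49, with 0.41 and 0.21 on dimmer probe sets that did not pass. The other falls were Rora and Stc1, each at -0.51, and Cited2, at -0.26. These 4 were named after their values were seen, to complete the count.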

How the data were processed

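The authors deposited one linear intensity per probe set and array, and the submitters' processing notes name GCOS 1.3. How it was set to scale and correct background is not given in the sources used here. Trimmed means were equal on all arrays, so a change common to most genes cannot be measured. The number of arrays limits the precision.

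Values were taken as log2(signal + 16) without the 64 control probe sets. Probe sets with a mean above the 40th percentile (a signal of 23.5) entered limma 3.58.1 (R 4.3.3), by lmFit and by eBayes with its trend option. Two-sided p-values were adjusted over all 27022 by Benjamini-Hochberg and called under 0.05. Folds on this log2 scale understate the change of dim genes. Of 45101 probe sets 34958 had 1 symbol in the platform annotation, 932 several and 9211 none. Only those with 1 were named. The GRCm38.p6 gene table matched 34754 of them and changed 0 symbols. Coordinates are those of RefSeq promoters in GRCm38.p6. A gene was represented by its brightest tested probe set. Of the 62 member probe sets 14 had the suffix x_at or s_at, which marks probes that can also bind other transcripts, and 4 of those 14 passed.

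Members, gene lists and tests were chosen with earlier results of these data known. Named genes are all members, and up to 5 called genes per further list. The rule gave values by array for members past the test and the largest change in each role, and those of other members were added after their values were seen. Replicate numbers are shared between the groups, but same-numbered arrays did not deviate together (correlations of 0.0102, -0.00261 and -0.0725), so no pairing was used. Alternatives were pseudocounts of 1 and 64, no filter, a filter at the 60th percentile, quantile normalization, median centring, no trend, a replicate block and leaving out each array.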

Additional observations from a re-analysis of the deposited data

How the results depend on the processing

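The 3 genes called lower, Epas1, Slc16a1 and Pdk4, passed the test under all 14 alternatives, where 3.02% to 8.24% of all genes were lower. With quantile normalization Hif1a joined them, and without BMP4 replicate 2 Pfkfb3 did. The 5 genes called higher had positive values throughout but not the same calls. Of the 14 alternatives, Pgam1 missed the threshold in 10, Pgk1 in 8, Pfkl in 7, and Ldha and Ldhb in 2 each. Higher members numbered 2 genes and 5 probe sets with no filter, where 2.62% of all genes were higher. They numbered 9 and 15 with the filter at the 60th percentile (7.48% of all genes) and 8 and 14 with quantile normalization (5.73%). With median centring they numbered 1 and 4 (2.78%), and with no intensity trend 0 and 2 (2.86%). The replicate block gave 3 higher genes, or 10.0% of members against 4.38% of all genes, and it changed no call of a lower gene. Leaving out 1 array gave 2 to 4 higher genes, where 3.54% to 4.25% of all genes were higher. It also gave 5 to 10 higher probe sets, a median of 0.09 to 0.16 over the members and 1622 to 1996 probe sets called in all. Without the intensity trend 1422 probe sets were called in all, 659 of them higher, and with median centring 632 were higher. The median of the members was 0.01 with median centring, against 0.11, and that over all genes was -0.07, against 0.03. The promoter core alone as ACGTG was found in 22 genes, since fewer letters are allowed. The cause of the other differences was not tested.

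Some members with log2 values near 0 changed sign without passing the test. Under quantile normalization these were Pfkfb4 (-0.03), Pdk1 (0.01) and Car12 (-0.08). Under median centring they were Slc2a1 (-0.05), Tpi1 (-0.01), and Pfkfb4, Egln1 and Car12 (each -0.09). With 1 array left out, the ranges were -0.24 to 0.32 for Egln1, -0.06 to 0.06 for Pfkfb4, -0.09 to 0.13 for Car12, -0.03 to 0.11 for Slc2a1, -0.04 to 0.05 for Pdk1, -0.13 to 0.02 for Bnip3 and -0.07 to 0.00 for Hk1.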
